A study of Homo sapiens with 4 samples.

Results

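Transcripts of 10 costimulatory genes were examined in THP1 cells, a monoblastic acute myeloid leukemia cell line that carries the MLL-AF9 fusion gene, after transfection of a miR-511 mimic. The genes were CD80, CD86, CD40, CD274, PDCD1LG2, ICOSLG, CD276, CD58, CD48 and HAVCR2, and every non-control probe of the array that carried 1 of these symbols was taken, which gave 16 probes of 34127. CD80 is a named target of miR-511, and the rule took every gene of the list by symbol and used no measured value. Cells of both groups received 30 nM of an miRNA mimic once, were kept in low-serum medium and were harvested on day 2. The groups were the miR-511 mimic (miR-511-5p, 2 arrays) and the control mimic (control #1, 2 arrays), each with 1 array from experiment 1 and 1 from experiment 2. A mimic raises a mature miRNA above the level of the cell, and THP1 is a single leukemia line, so the arrays speak of these cells and not of primary monocytes.

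A T cell that meets its antigen needs a further signal from the presenting cell, and the genes of this list encode the surface proteins that give or withhold it. CD80 and CD86 bind CD28, which activates T cells, and CTLA4, which restrains them. CD274 (PD-L1) and PDCD1LG2 (PD-L2) bind the inhibitory receptor PDCD1, ICOSLG binds ICOS, and CD276 (B7-H3) belongs to the same B7 family. CD58 binds CD2, and CD48 binds CD244. CD40 and HAVCR2 (TIM-3) are receptors rather than ligands: CD40 is engaged by CD40LG on activated T cells and signals through TRAF proteins, and HAVCR2 is an immune checkpoint receptor also found on myeloid cells.

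A miRNA pairs with transcripts mainly through its seed, bases 2 to 8. The mature miR-511-5p is shown with its seed in capitals, since the mimic delivers this strand. The mature sequence lies on chr10:17845122-17845142 of GRCh38.p14, plus strand, within MRC1 (RefSeq).
hsa-miR-511-5p: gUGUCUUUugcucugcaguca

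The array reads each transcript through 60-base probes, given here in the direction of the transcript with coordinates on hg19 as in the scanner files. The complement of the whole seed, AAAGACA, was in none of the 16 probes and in 0.97% of all probes. The complement of bases 2 to 7, AAGACA, was also in none of the 16 and in 2.83% of all probes. The complement of bases 3 to 8, AAAGAC, was in 2 of the 16 and in 2.53% of all. Both shorter words lie within the longer one, and probes were read in the transcript direction only. These 2 probes, of CD40 and CD48, are shown with the word in capitals. The second CD40 probe and the 2 CD58 probes follow, because each pair reads 2 places of 1 transcript. Probes are windows of the transcript and not binding sites, and sequence of 3′UTRs was not used here.
CD40 5′ probe (chr20:44755280-44755339, plus strand): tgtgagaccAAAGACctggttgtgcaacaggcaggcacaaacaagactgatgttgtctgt
CD48 (chr1:160654682-160654741, minus strand): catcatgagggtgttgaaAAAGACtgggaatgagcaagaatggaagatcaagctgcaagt
CD40 3′ probe (chr20:44757581-44757640, plus strand): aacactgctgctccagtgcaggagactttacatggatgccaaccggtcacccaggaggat
CD58 5′ probe (chr1:117078588-117078647, minus strand): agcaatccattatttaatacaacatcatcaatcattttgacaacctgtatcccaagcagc
CD58 3′ probe (chr1:117061888-117064585, minus strand): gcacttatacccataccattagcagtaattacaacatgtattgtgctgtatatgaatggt
The coordinates of the CD58 3′ probe span 2698 bases of the genome, so its 60 bases come from more than 1 exon. Where a gene had 2 probes, 5′ and 3′ name the one nearer to the start or to the end of the gene.

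The list fell into genes that were detected on every array and genes that were detected on none. CD86, CD40, ICOSLG, CD276 and CD58 were well above background on all 4 arrays at each of their 9 probes. CD80, CD274, PDCD1LG2, CD48 and HAVCR2 were well above background on no array at any of their 7 probes. Over all probes of the array, 63.3% were well above background on all 4 arrays and 28.9% on none. Well above background is the scanner software's own call, and a probe that misses it has no more than an upper bound there. Missing it does not show that a transcript is absent.

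**Figure D1:**
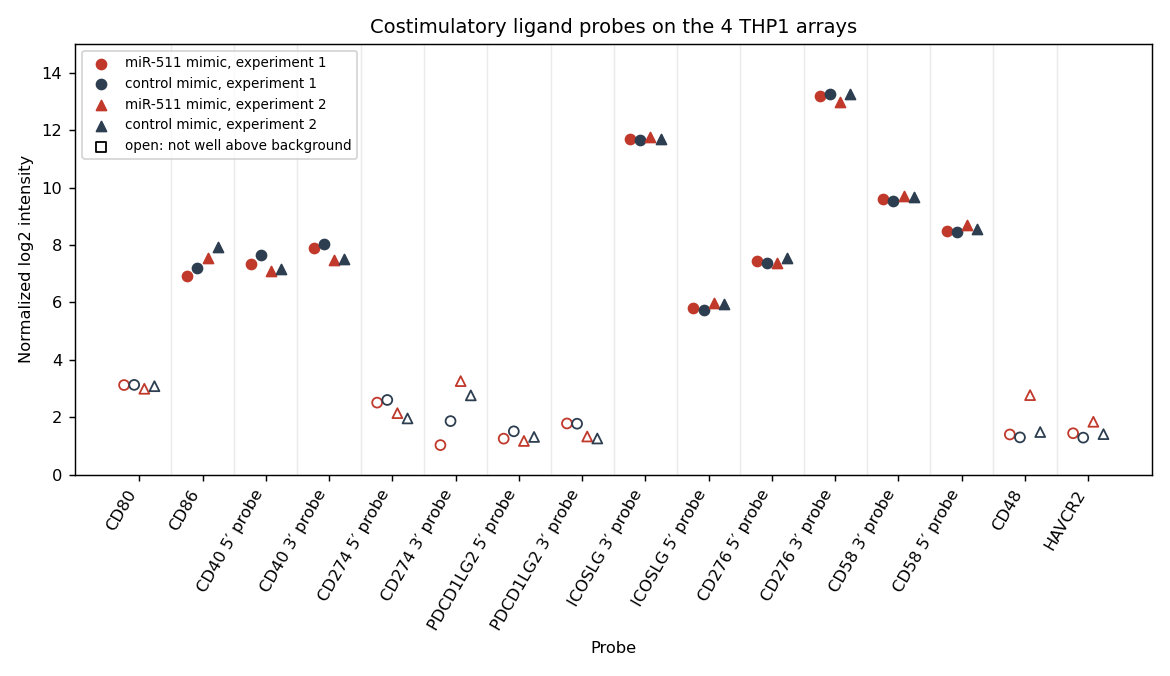
Normalized log2 intensity (vertical axis) of the 16 probes (horizontal axis) on the 4 arrays, with 1 point per array, circles for experiment 1, triangles for experiment 2 and open symbols where the probe was not well above background. The 9 filled probes lie above 5.7 and the 7 open ones below 3.3, and brightness can be compared between arrays of 1 probe but not between probes.

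In the study, CD80 was a target known from other cellular contexts and was not above background after the mimics. Here too, CD80 was a named target whose transcript was not well above background in either treatment. Its probe (A_24_P320033, chr3:119243684-119243743, minus strand) had normalized log2 intensities in experiment 1 of 3.12 for the miR-511 mimic and 3.13 for the control mimic, and of 2.99 and 3.08 in experiment 2. The 4 arrays lay close together, and the treatments overlapped. The scanner intensity in experiment 1 was 7.16 for the miR-511 mimic and 10.01 for the control mimic, and in experiment 2 it was 8.54 and 8.30. It was positive and significant against the local background on all 4 arrays, a weaker call than well above background. Since neither group has more than an upper bound at this probe, no difference or fold change is given for CD80, and a change of its transcript was not detectable on these arrays.

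The ligands of PDCD1 were at the same limit. The CD274 5′ probe (chr9:5465546-5465605) gave scanner intensities of 4.57 and 7.11 in experiment 1 (miR-511 mimic, then control mimic) and 4.67 and 3.67 in experiment 2. The CD274 3′ probe (chr9:5468310-5468369) gave 2.07 and 4.10 in experiment 1 and 10.3 and 6.67 in experiment 2, the first of them a surrogate, the small positive value that the software writes where none was measured. The 5′ probe had its highest value in experiment 1 and the 3′ probe in experiment 2, and neither was well above background. The 2 probes of PDCD1LG2 (chr9:5549556-5557628, across a splice junction, and chr9:5557692-5557751) lay between 2.39 and 3.73, with surrogates on 3 of 4 arrays each.

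CD48 and HAVCR2 behaved alike in this respect. The CD48 probe held surrogates on 3 of 4 arrays, and its scanner intensities were 2.64, 2.29, 7.34 and 2.80 for miR-511 mimic and control mimic of experiment 1 and then of experiment 2. The HAVCR2 probe (chr5:156513318-156513377) gave 2.72, 2.27, 3.55 and 2.67 in the same order, again with surrogates on 3 of 4. For both genes the only value that was no surrogate came from the miR-511 mimic of experiment 2. Surrogate values have no size, so no difference is given for these genes either.

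The comparison of interest was whether the miR-511 mimic changed the transcripts of the detected genes. None of their 9 probes passed limma's unadjusted threshold of 0.05, where 2.20% of the 22638 tested probes of all genes did (498 probes). After Benjamini-Hochberg adjustment no probe of the array passed, with a smallest adjusted p of 0.79 in limma and of 1.00 for the 9 probes. With the miR-511 mimic 4 of the 9 were higher and 5 lower, with log2 differences from -0.33 to 0.097 and a median of -0.064, against a median of 0.0098 over all tested probes. The median size of the difference was 0.080 for the 9 probes and 0.079 for all. The median SE was 0.122 and 0.123. Differences had the same direction in both experiments at 8 of 9 probes and at 51.0% of all tested probes. The 9 probes read only 5 genes, so probes of the same gene are not separate observations. Some of these differences were small, 0.010 to 0.091 at ICOSLG. The treatments did not overlap at 1 of the 9 and at 25.7% of all.

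**Figure D2:**
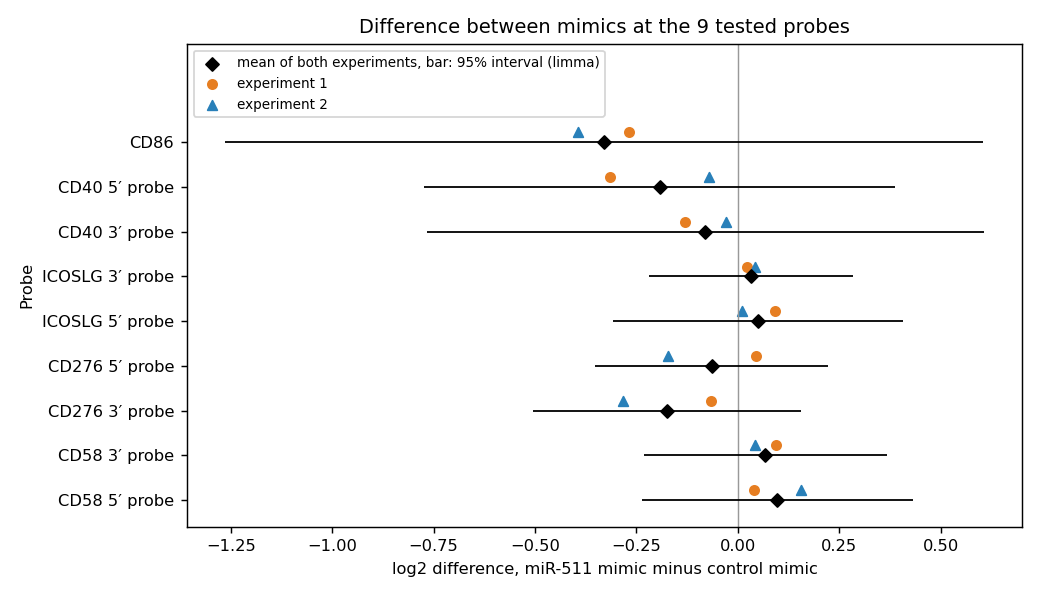
Log2 difference, miR-511 mimic minus control mimic (horizontal axis), at the 9 tested probes (vertical axis), with circles for experiment 1, triangles for experiment 2, diamonds for their mean and bars for limma's 95% interval. CD86 and both CD40 probes lie below 0 in both experiments, ICOSLG and CD58 above 0, and every interval includes 0.

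CD86, the second ligand of CD28 and CTLA4, had the largest difference of the 9. Its probe (A_24_P131589, chr3:121839246-121839305, plus strand) read 6.93 (miR-511 mimic) and 7.19 (control mimic) in experiment 1, and 7.53 and 7.92 in experiment 2. CD86 was lower with the miR-511 mimic in each experiment, with differences of -0.268 and -0.394 on the log2 scale, yet the miR-511 mimic of experiment 2 was above the control mimic of experiment 1, so the treatments overlapped. The mean difference was -0.33 (SE 0.341, 95% interval -1.265 to 0.604, n = 2 per group), a level of 0.795 of the control. The spread between arrays of a treatment was 0.428 (SD) for the miR-511 mimic and 0.517 for the control mimic, each larger than the difference.

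The experiment number pairs the arrays, and with the experiment as a block the SE of CD86 fell to 0.085 and CD86 passed the unadjusted threshold, as did 3.95% of all tested probes. Its adjusted p with the block was 0.969 in limma, so it did not pass adjustment. No other probe of the 10 genes was called with the block. Under the block CD86 also passed the unadjusted threshold with 75th percentile scaling (-0.342, SE 0.080) and with normexp background correction (-0.228, SE 0.070). The same was so with the deposited table (-0.336, SE 0.085) and with the marked spots kept (-0.336, SE 0.084). These combinations reuse the same 4 arrays and were added after the call of CD86 had been seen, so they are no separate evidence. Without the block and without the control mimic of experiment 2 the difference was 0.035, above 0, and without the miR-511 mimic of experiment 1 it was -0.028. Without the control mimic of experiment 1 it was -0.696, and without the miR-511 mimic of experiment 2 it was -0.633. Each of these fits keeps 1 treatment from a single experiment only, so its value also holds the difference between experiments. In bulk RNA, fewer cells with a transcript and less of it per cell cannot be told apart.

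**Figure D3:**
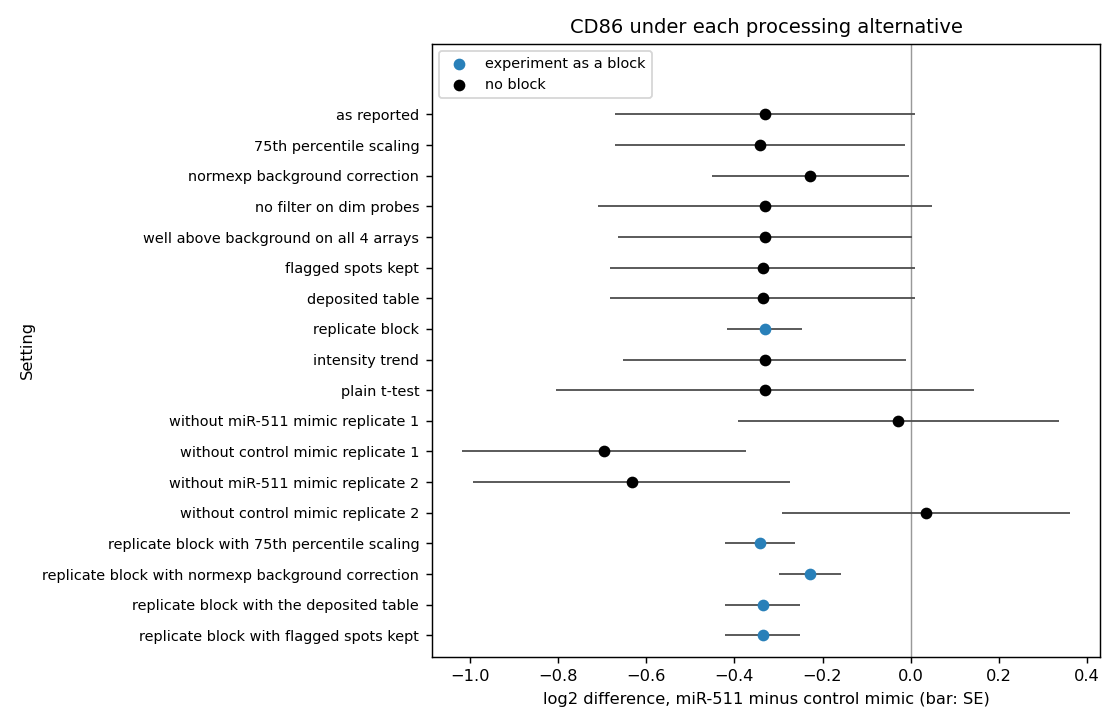
CD86 log2 difference, miR-511 mimic minus control mimic (horizontal axis), under each processing alternative (vertical axis), with bars for the standard error, blue points for fits with the experiment as a block and black points for fits without. The value stays between -0.342 and -0.228 except where 1 array is left out, where it runs from -0.696 to 0.035.

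CD40, the receptor through which T cells activate antigen-presenting cells, was read by 2 probes, and both were lower with the miR-511 mimic in both experiments without passing the threshold. The 5′ probe (A_33_P3245439) read 7.33 (miR-511 mimic) and 7.64 (control mimic) in experiment 1, and 7.08 and 7.15 in experiment 2. The 3′ probe (A_23_P57036) read 7.90 and 8.03 in experiment 1 and 7.475 and 7.503 in experiment 2. At both probes the arrays of experiment 1 were all above those of experiment 2. The mean difference was -0.193 at the 5′ probe (SE 0.212, 95% interval -0.774 to 0.388, n = 2 per group). At the 3′ probe it was -0.080 (SE 0.251, 95% interval -0.767 to 0.608). The 3′ probe was printed 10 times per array, and the coefficient of variation over its 10 spots was 10.1% and 2.97% on the arrays of experiment 1 (miR-511 mimic, then control mimic) and 2.17% and 6.22% on those of experiment 2. Repeated spots measure the printing and scanning of 1 sample, not the biology.

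ICOSLG, the ligand of ICOS, differed least among the detected genes. Its 3′ probe (A_23_P166280, chr21:45642940-45642999, minus strand) read 11.68 (miR-511 mimic) and 11.66 (control mimic) in experiment 1, and 11.75 and 11.70 in experiment 2. Its 5′ probe (A_23_P317667, chr21:45655295-45655354) read 5.81 and 5.72 in experiment 1 and 5.96 and 5.96 in experiment 2. Both probes were higher with the miR-511 mimic in both experiments, by 0.010 to 0.091. The mean difference was 0.033 at the 3′ probe (SE 0.092, 95% interval -0.219 to 0.285, n = 2 per group) and 0.050 at the 5′ probe (SE 0.130, 95% interval -0.307 to 0.407). The intervals leave room for a change of up to 0.407 on the log2 scale. The 3′ probe is tied to a single Ensembl transcript that the RefSeq table did not hold, while the other 15 probes matched their symbol.

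CD276, the B7 family member B7-H3, had the single probe at which the treatments did not overlap. Its 3′ probe (A_33_P3222917, chr15:74006791-74006850, plus strand) read 13.21 (miR-511 mimic) and 13.27 (control mimic) in experiment 1, and 12.97 and 13.25 in experiment 2. Both arrays of the miR-511 mimic were below both of the control mimic. The mean difference was -0.174 (SE 0.120, 95% interval -0.504 to 0.155, n = 2 per group), larger than the SD of 0.167 among miR-511 mimic arrays and of 0.012 among control arrays, and it did not pass the threshold. The 5′ probe (A_33_P3217393, chr15:73996699-73996758) read 7.43 and 7.39 in experiment 1 and 7.36 and 7.54 in experiment 2. This probe went up in experiment 1 and down in experiment 2, for a mean of -0.064 (SE 0.105, 95% interval -0.351 to 0.223), so the 2 probes of CD276 had the same direction in experiment 2 and not in experiment 1.

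CD58, the adhesion ligand of CD2, was higher with the miR-511 mimic at both probes in both experiments, by 0.039 to 0.156. The 5′ probe (A_33_P3209096) read 8.49 (miR-511 mimic) and 8.45 (control mimic) in experiment 1, and 8.71 and 8.55 in experiment 2. The 3′ probe (A_33_P3289356) read 9.62 and 9.52 in experiment 1 and 9.72 and 9.68 in experiment 2. The treatments overlapped at both. The mean difference was 0.097 at the 5′ probe (SE 0.122, 95% interval -0.237 to 0.432, n = 2 per group) and 0.068 at the 3′ probe (SE 0.109, 95% interval -0.232 to 0.368). Among the 9 tested probes the CD58 5′ probe had the highest signed difference, which was below its SE.

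For CD86 and CD40 the mean difference between experiments was larger than that between mimics, although at the CD40 5′ probe the mimics differed in experiment 1 by -0.315. CD86 was higher in experiment 2, by 0.605 between miR-511 mimic arrays and by 0.731 between control mimic arrays. The CD40 5′ probe moved the other way, by -0.251 and -0.495, and the CD40 3′ probe by -0.426 and -0.527. Over all tested probes the median size of the difference between experiments was 0.149 between the miR-511 mimic arrays and 0.137 between the control mimic arrays. The other 6 probes, of ICOSLG, CD276 and CD58, differed between experiments by -0.236 to 0.232. The summed level of 7 dendritic cell markers also differed between experiments. It went from 13270 and 13600 in experiment 1 to 15430 and 15450 in experiment 2 (miR-511 mimic, then control mimic). That sum lay mostly in FSCN1, which was higher in experiment 2 by 0.237 and 0.216 on the log2 scale, while CCR7 went the other way, by -1.091 and -0.647, and CD83 by 0.125 and -0.042. The list did not move together. CCR7, CD209, CD83 and FSCN1 were well above background on all 4 arrays and CD1A, CD1C and LAMP3 on none. Their part in the level of CD86 was not tested.

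**Figure D4:**
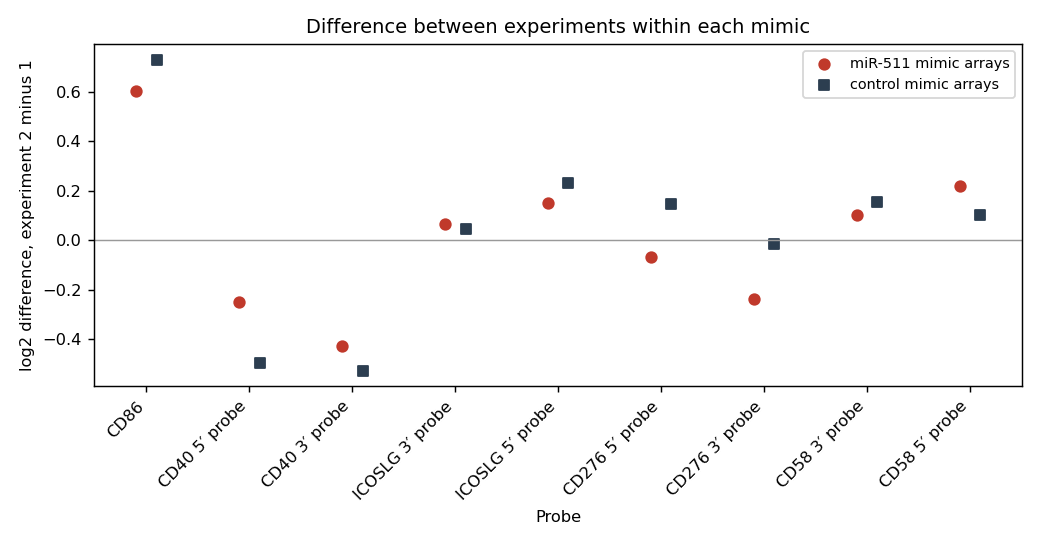
Log2 difference, experiment 2 minus experiment 1 (vertical axis), at the 9 tested probes (horizontal axis), with circles for the miR-511 mimic and squares for the control mimic. CD86 lies above 0.6 and the CD40 probes below -0.2 in both treatments.

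The genes around these members were read from lists of their family, receptors and signalling routes. The lists held 54 symbols, some of them without a probe, and 67 probes. Of these, 49 probes of 39 genes were tested, and 1 probe (2.04%) passed the unadjusted threshold, beside 2.20% over all genes. The median log2 difference of the 49 was 0.025. The probe was that of TNFSF4, the OX40 ligand, a costimulatory ligand of the TNF superfamily (chr1:173153179-173153238). It read 4.46 (miR-511 mimic) and 3.81 (control mimic) in experiment 1, and 4.29 and 3.63 in experiment 2, and both arrays of the miR-511 mimic were above both of the control. Both arrays of the miR-511 mimic but 1 of 2 control arrays were well above background, so the probe entered the test only through the group where it was high, and the call is a description and no support for a change. The fitted difference was 0.652 (SE 0.122, n = 2 per group, adjusted p 1.00 in limma), and since the control array of experiment 2 has only an upper bound, its size is not settled. The probe was not tested when all 4 arrays had to be well above background, and the call was lost with normexp background correction.

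Within the lists, 6 of 8 other B7 and butyrophilin genes on the array were tested (9 probes, median 0.018, none called). The receptors that the members bind are T and NK cell genes for the most part, and CTLA4 and ICOS were well above background on no array. PDCD1, CD244 and RGMB, also on that list, were well above background on all 4 arrays. In all 5 probes of 4 receptor genes were tested, and none was called. Of the ligands of HAVCR2, LGALS9 and HMGB1 were tested at 3 probes with none called. The SLAM family beside CD48 had 8 tested probes of 5 genes and none called.

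The route downstream of CD40, from TRAF adaptors to the noncanonical NF-kB genes NFKB2 and RELB, had 9 of 10 genes tested at 10 probes, with a median difference of -0.034 and none called. TRAF1 was well above background on no array. The interferon-gamma route, which raises CD274 in many cells, and the CD274 partners CMTM4 and CMTM6 were detected on all 4 arrays at all 9 genes, with a median of 0.068 over 10 probes and none called. CD274 itself was below the call in cells whose IFNGR1, IFNGR2, JAK1, JAK2 and IRF1 probes were above it. Among the costimulatory TNF ligands, TNFSF4 was the only call among 4 tested probes, and TNFSF15 and TNFSF18 were well above background on no array.

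The identity of the cells was checked with marker genes. All 12 monoblast markers named on the array (LYZ and FCGR1A were not), among them MPO, ELANE and CSF1R, had this call on all 4 arrays. The T cell markers CD3G, CD5 and TRAT1, the B cell marker MS4A1 and the NK cell markers KLRD1 and NCR1 had it on none, while CD3E was on 3 and CD3D, CD8A, CD79A, CD79B, PAX5, KLRF1 and NKG7 were on all 4. The summed level ran over the arrays from 721400 to 801300 for the monoblast list, from 144.5 to 146.9 for the T cell list and from 4725 to 5141 for the NK cell list. For the B cell markers CD79A, CD79B, PAX5 and MS4A1 it was 1495 and 1465 with the miR-511 mimic (experiments 1 and 2) against 1365 and 1382 with the control mimic, higher with the miR-511 mimic in both experiments. A sum over unlike probes follows its brightest ones: CTSG for the monoblast list, NKG7 for the NK cell list and CD79A for the B cell markers. Such sums can be compared between arrays but not between lists. No probe of a marker list passed the threshold, and the part of these markers in the results was not tested. Per array, 64.8% to 69.3% of all probes had the scanner's call, and no spot was saturated.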

How the data were processed

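Agilent whole-genome arrays (Cy3, 1 colour) of 4 THP1 samples were used. The deposited scanner files hold intensities that the authors had background-subtracted and detrended by Agilent Feature Extraction (10.7.3.1 in the file headers, 10.5.1.1 in the submitters' processing notes), with surrogates for spots without signal. The authors also deposited quantile-normalized log2 values, used as an alternative.

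Here, log2 intensities of 43118 non-control spots were quantile normalized without the 232 to 301 outlier spots per array, and spots of a probe were averaged (R 4.3.3, limma 3.58.1). A probe was tested if it had a value on all 4 arrays and, in at least 1 treatment, both arrays were well above background (for the probe printed 10 times, more than 50% of its spots). limma compared the mimics over all 22638 such probes of 34127 (two-sided, unadjusted threshold 0.05 as in the study's methods, then Benjamini-Hochberg adjustment). The study's methods also ask for a significant t-test over a probe's identical replicates. That condition was not applied here, where spots were averaged. An exact permutation test of 2 arrays against 2 cannot go below p = 0.333, so none is given. Functions were tested on simulated data. Labels and methods tie same-numbered arrays to 1 experiment, and the correlation of their deviations was 0.271, so the experiment was a block in an alternative fit.

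Every probe of the 10 genes is named, and of the other lists each probe past the unadjusted threshold. Genes and lists were chosen with earlier results of these data known. NCR3LG1 and BTN3A3 of the lists were not named on the array, and VSIR was named there only by its older symbol, C10orf54. Some genes of the lists are not reported here by name. Other alternatives were the scaling, the background correction, the filter, the marked spots, the spread model and leaving out each array. Coordinates of probes are hg19 as in the files, and the miRNA and gene names are from RefSeq tables (GRCh38.p14).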

Additional observations from a re-analysis of the deposited data

Results flagged for a closer look

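The CD276 5′ probe differed in direction between the experiments, which is why it is listed here. The difference, miR-511 mimic minus control mimic, was 0.045 on the log2 scale in experiment 1 and -0.172 in experiment 2, with 1 array per treatment in each. Whether the experiments differ was not tested. The CD276 3′ probe was below 0 in both, by -0.065 and -0.284.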

How the results depend on the processing

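None of the 9 tested probes passed the unadjusted threshold under any alternative except the replicate block, with or without another scaling, where 1 did (CD86, -0.331, and with the added combinations 1 each: -0.342, -0.228, -0.336 and -0.336). The block changed no other call among the 10 genes. No alternative gave a probe that passed adjustment. The count over all genes, 498, became 1029 without a filter on dim probes, 265 with normexp background correction, 894 with the replicate block and 285 with an intensity trend, and ran from 709 (without the control mimic of experiment 2) to 1440 (without the miR-511 mimic of experiment 2) when 1 array was left out, with 794 and 903 without the miR-511 mimic and the control mimic of experiment 1. Of the gene lists, 1 probe passed, against 2 without the filter (SLAMF7 and TNFSF4), 0 where all 4 arrays had to be well above background, 1 with normexp (STAT3 in place of TNFSF4) and 2 to 4 with 1 array left out. Probes well above background on all 4 arrays numbered 9, and 11 by the weaker call of positive and significant. The direction of ICOSLG's 3′ probe turned with normexp (-0.001). With 1 array left out, 7 of the 9 values changed sign: CD86 from -0.696 to 0.035, CD40 5′ from -0.441 to 0.055, CD40 3′ from -0.343 to 0.184 (0.133 without the miR-511 mimic of experiment 2), ICOSLG 5′ from -0.066 to 0.166 (-0.025 without the miR-511 mimic of experiment 2), CD276 5′ from -0.138 to 0.010, CD58 3′ from -0.010 to 0.146 and CD58 5′ from -0.013 to 0.207. CD276 3′ stayed below 0, from -0.292 to -0.056, and ICOSLG 3′ above 0, from 0.001 to 0.065. With 1 array left out and no block, 1 treatment comes from a single experiment, so the value also holds the difference between experiments. Other causes were not tested. A lone array left in a group was assumed to vary like the other group. With 2 arrays per treatment and no block, the 95% interval of each of the 9 probes included 0. That bounds and does not exclude a change, and no interval is given for the 7 dim probes. Without a filter on dim probes, all 16 probes of the 10 genes were fitted, and none passed the unadjusted threshold.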
